A study of Mus musculus with 9 samples.

Results

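The enzymes described here clear foreign compounds, steroids and retinoids in the liver. They were taken from the deposited gene table of a mouse liver RNA-seq experiment as the genes whose symbols start with Cyp, Fmo, Ces, Adh, Aldh, Akr, Rdh, Hsd, Ugt, Gst or Sult followed by a digit, or by a letter and a digit. Of 1525 listed genes, 52 matched. The Cyp4a genes Cyp4a10, Cyp4a14, Cyp4a31 and Cyp4a32, the gene Gstm6 and 2 pseudogenes were left out, and the remaining 45 genes are the subject of this report. The choice of names used no measured value, but the table itself did: its genes had been selected by the authors for a difference between the same genotypes, at an unadjusted p under 0.05 and a fold change over 1.2. That an enzyme in the table differs between genotypes is therefore not a result. Its direction, its size and its place among the other listed genes are given as a description, with no test.

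Adult livers of 2 genotypes were compared, from mice labelled C57BL/6 and given as C57BL/6J in the study's methods. Alb-D2KO mice carry a floxed Dio2 allele and Cre recombinase under the albumin promoter, which is active in hepatocytes. The study describes the inactivation as hepatocyte-specific, and whether the other cells of the liver kept Dio2 could not be checked here. Dio2 is the gene of type 2 deiodinase. This enzyme makes the active thyroid hormone T3 from thyroxine. Control mice expressed the same Cre, and the Cre was thus shared by both groups. There were 5 control and 4 Alb-D2KO libraries, each labelled as 1 liver. The labels give neither sex nor age in weeks, and per the study's methods the mice ate chow at room temperature. Per the paper, liver Dio2 expression peaks just after birth and is silenced thereafter. The livers compared here were adult, past that peak. Dio2 was not listed in the gene table, so the genotype labels could not be checked against it.

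Liver enzymes of this kind act in sequence. Cytochromes P450 and flavin monooxygenases add oxygen to a substrate, carboxylesterases split esters and amides, and dehydrogenases and reductases interconvert alcohols, aldehydes and ketones, including retinol and the steroids. Glucuronosyl-, glutathione and sulfotransferases then attach a polar group so that the product can leave in bile or urine. Many of these genes sit in tandem clusters of close relatives and are under the control of nuclear receptors such as CAR, PXR and PPARα.

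In Alb-D2KO liver, 42 of the 45 enzyme genes had a lower mean estimated count than in control liver and 3 had a higher one. The lower share was 93.3%, beside 89.4% of all listed genes. The median ratio of Alb-D2KO over control was 0.715, with an interquartile range of 0.660 to 0.782, beside a median of 0.686 over all listed genes and 0.684 over the 1480 listed genes of other kinds. A mean at least 1.5-fold lower was found for 14 enzyme genes (31.1%), beside 45.1% of all listed genes. A mean at least 2-fold lower was found for Rdh16, Cyp2c38 and Cyp2c55, which is 6.67% of the enzymes beside 16.3% of the list. The share of lower genes was thus near that of the list, and the shares at 1.5-fold and 2-fold were below it, with no test of these differences. These shares leave out the 4 Cyp4a genes and Gstm6. Those 5 genes were listed, and each was at least 1.5-fold lower, with ratios of 0.175 to 0.529. Of the 42 lower enzymes, 23 had ratios of 0.70 to 0.85, 12 of 0.60 to 0.70 and 7 under 0.60. The differences nearest to the threshold of the table were those of Aldh5a1, Hsdl2 and Ugt2b36, each at a ratio of 0.809, and the smallest fold change of any listed gene was 1.21.

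The enzymes stood out by level. Their median estimated count, summed over the 9 libraries, was 20392 reads, beside 1797 reads for all listed genes. At least 1000 summed reads were reached by 40 of 45 enzymes (88.9%) and by 57.8% of the list. Together their control means came to 380147 reads per library and their Alb-D2KO means to 276578 reads, a ratio of 0.728. This was 1.14% of the assigned reads of a mean control library and 0.886% of those of a mean Alb-D2KO library. Cyp2e1 alone made up 35.1% of the control sum.

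The gene table gives 1 mean per genotype and no value per library, so the spread between animals cannot be shown for any enzyme. The intervals given below are 95% Clopper-Pearson intervals of the ratio for counting error alone, as if each estimated read were an independent molecule, and they leave out the variation between mice. On that narrow basis the interval lay below 1 for the 42 lower enzymes and above 1 for the 3 higher ones. In whole liver, fewer cells of a type and less RNA per cell cannot be told apart. Of the 6 hepatocyte markers examined (Alb, Apoa1, Ttr, Cps1, Hnf4a and Serpina1c), 0 were listed, so the tissue label could not be checked from levels here.

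**Figure D1:**
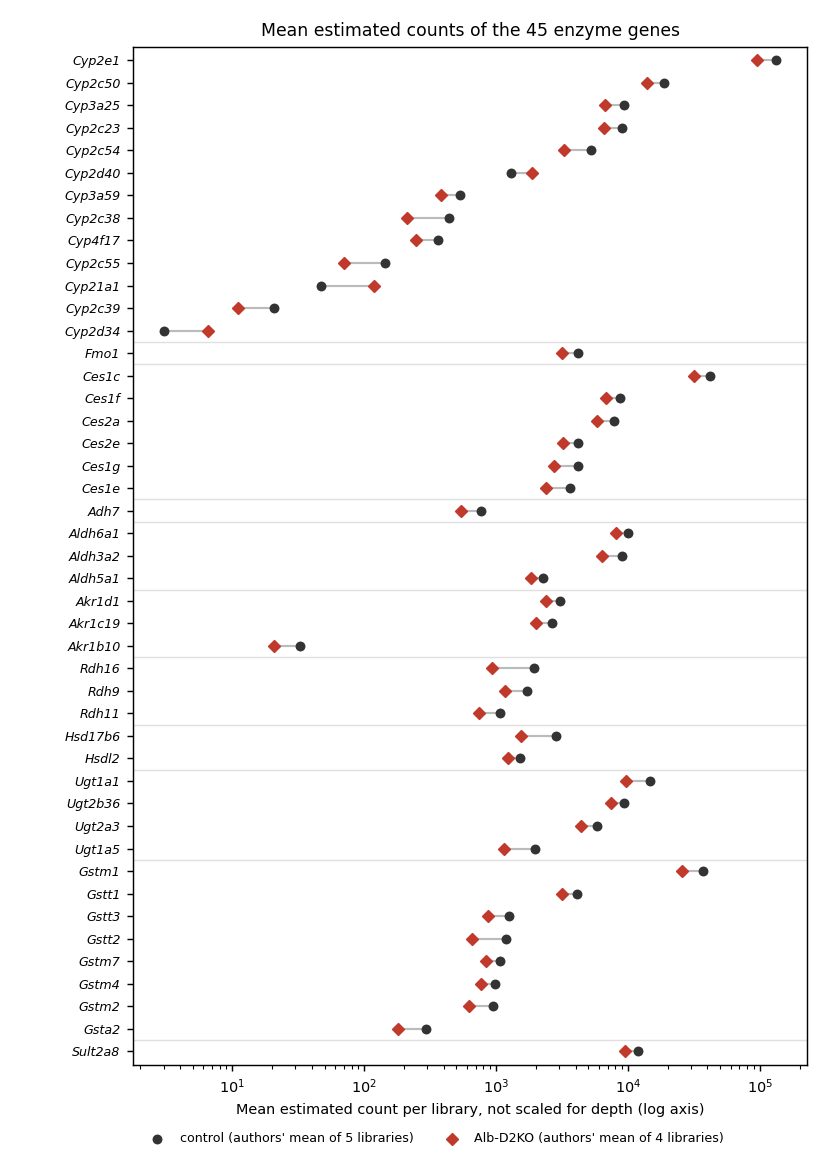
Authors' mean estimated count of each of the 45 enzyme genes in control liver (black circles, mean of 5 libraries) and Alb-D2KO liver (red diamonds, mean of 4 libraries) on a log axis, grouped by family and ordered by control mean, with no error bars because no values per library were used. Red lies to the left of black for 42 genes and to the right for Cyp2d40, Cyp2d34 and Cyp21a1, and the levels run from 3.01 reads for Cyp2d34 to 133437 reads for Cyp2e1 in control liver.

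The sources used here give the normalization as "absolute value", and that the means were not scaled for sequencing depth is inferred from the values. For 421 of the 1525 listed genes, each genotype's mean times its number of libraries was a whole number (within 1e-06), as sums of unscaled counts would be, and the others can hold fractions from the counter. If some scaling had been made, the further scaling below would not apply. Depth was lower on average in Alb-D2KO, the direction of most enzymes. Assigned reads, computed as total reads times the percent lying fully within an exon, were 33923748, 30775674, 37016072, 29692773 and 36049178 in the 5 control libraries and 36332719, 30173787, 28864613 and 29524173 in the 4 Alb-D2KO libraries. The groups overlapped, with 3 of 4 Alb-D2KO libraries among the 4 shallowest and the other near the top. The mean was 33491500 ± 3199890 reads (SD, n = 5) in control and 31223800 ± 3447610 reads (SD, n = 4) in Alb-D2KO, a log2 difference of -0.10, which did not pass an exact two-sided permutation test over the 126 splits (p = 0.302, adjusted p = 0.302 over 7 library measures). The median gene value per library gave a log2 difference of -0.18 (exact two-sided permutation test, p = 0.175, adjusted p = 0.302). Divided by the ratio of mean assigned reads, 0.932, the median enzyme ratio became 0.767 and 33 of 45 enzymes stayed over 1.2-fold lower (73.3%, beside 78.4% of the list). Divided by the ratio of mean median gene values, 0.890, it became 0.804 and 27 of 45 stayed over 1.2-fold lower (60%, beside 65% of the list). No enzyme lower by at least 2-fold was left under either scaling, and the 3 higher enzymes stayed over 1.2-fold higher. No enzyme changed side under the 4 scalings tried. None could, since each listed gene differed by at least 1.21-fold and the largest scaling divided by 0.890. Scaling could only raise the higher ratios.

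**Figure D2:**
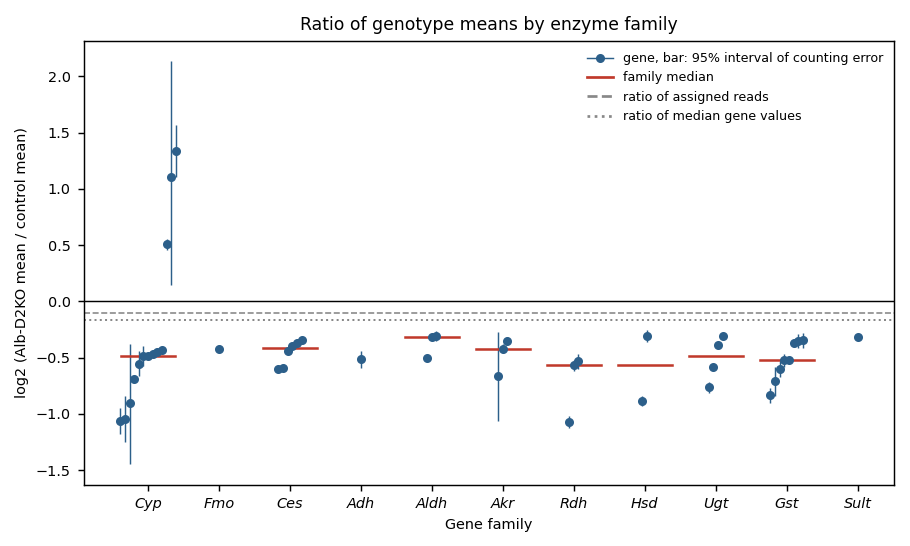
Log2 ratio of the Alb-D2KO mean over the control mean for each enzyme gene (points, with 95% intervals of counting error), by family, with family medians in red where a family has more than 1 gene. The dashed line is the log2 ratio of mean assigned reads, -0.10, and the dotted line that of mean median gene values, -0.17. All points other than 3 Cyp genes lie below both lines.

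The cytochromes P450 gave 13 listed genes of 103 annotated protein-coding ones, 10 lower and 3 higher, with a median ratio of 0.715. Counts of annotated genes here and below leave out the genes left out by name. Cyp2e1, which oxidizes ethanol, paracetamol and small solvents, had the largest mean of all the enzymes and the highest level per kilobase of exon, 61834 reads per kb in control liver. Its mean was 133437 reads in control and 95406 reads in Alb-D2KO, a ratio of 0.715 (interval 0.712 to 0.718). It lies on the plus strand of chromosome 7 (chr7:140763739-140774987, mm10). The RefSeq start used for the sequence here lies further into the gene than the GENCODE one. The 250 bases before it (GRCm38.p6, chr7:140763569-140763818, plus strand) are shown because this is the most abundant enzyme transcript of the set, with the letters TATAAA in capitals, 31 bases before the start.
Cyp2e1 promoter: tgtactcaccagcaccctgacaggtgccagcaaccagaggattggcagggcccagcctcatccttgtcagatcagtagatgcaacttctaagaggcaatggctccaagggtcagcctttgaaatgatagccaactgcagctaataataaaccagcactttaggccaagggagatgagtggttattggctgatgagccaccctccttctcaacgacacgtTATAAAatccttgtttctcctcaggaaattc

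The Cyp2c enzymes, which oxidize drugs and make epoxy and hydroxy products of arachidonic and linoleic acid, had 6 listed genes of 15 annotated, and the 6 were lower. Among the P450 genes kept here, scarce Cyp2c genes had the lowest ratios. This did not hold for all scarce P450 genes, since Cyp4f17 had a ratio of 0.681 and Cyp21a1 and Cyp2d34 were higher in Alb-D2KO. The left-out Cyp4a genes had ratios of 0.175 to 0.490, and Cyp4a10, with 1600 reads in control, was the lowest of them. Cyp2c38 had a mean of 436 reads in control and 209 reads in Alb-D2KO, a ratio of 0.479 (interval 0.442 to 0.520). Cyp2c55 had 144 and 69.8 reads, a ratio of 0.484 (0.420 to 0.557). Cyp2c39 had 20.6 and 11 reads, a ratio of 0.534, with a wide interval of 0.366 to 0.767 at this depth. The abundant members had higher ratios, still under 1. Cyp2c54 had 5278 and 3280 reads (ratio 0.621), Cyp2c23, an arachidonic acid epoxygenase, 9029 and 6604 reads (ratio 0.731), and Cyp2c50 18754 and 13894 reads (ratio 0.741). Cyp2c54 shares 42.3% of its 31-base transcript words with other genes, 31.4% with Cyp2c50, so reads may have been divided between them. The median over the 6 genes was 0.578, while the ratio of their summed means, which the abundant genes decide, was 0.715.

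The Cyp3a genes encode enzymes that hydroxylate steroids and many drugs. Of 9 annotated, Cyp3a25 and Cyp3a59 were listed. Cyp3a25 had means of 9302 reads in control and 6732 reads in Alb-D2KO (ratio 0.724, interval 0.713 to 0.735), and Cyp3a59 of 533 and 381 reads (ratio 0.714, interval 0.670 to 0.761). These neighbours on chromosome 5 share 45.9% and 49.9% of their 31-base transcript words with other genes, mostly with each other, so their reads may have been divided between them and their nearly equal ratios are not separate measurements. Their promoters are shown for the same reason, from the minus strand at chr5:146009619-146009868 and the plus strand at chr5:146079008-146079257. They were identical at 238 of 249 aligned bases (95.6%), and capitals mark the hexamer AGGTCA or its reverse complement TGACCT, the core letters bound by many nuclear receptors.
Cyp3a25 promoter: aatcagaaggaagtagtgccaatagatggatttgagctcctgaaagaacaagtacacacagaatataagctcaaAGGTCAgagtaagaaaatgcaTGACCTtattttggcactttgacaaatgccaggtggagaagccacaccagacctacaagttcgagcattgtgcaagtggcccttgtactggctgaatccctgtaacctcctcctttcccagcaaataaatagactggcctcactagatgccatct
Cyp3a59 promoter: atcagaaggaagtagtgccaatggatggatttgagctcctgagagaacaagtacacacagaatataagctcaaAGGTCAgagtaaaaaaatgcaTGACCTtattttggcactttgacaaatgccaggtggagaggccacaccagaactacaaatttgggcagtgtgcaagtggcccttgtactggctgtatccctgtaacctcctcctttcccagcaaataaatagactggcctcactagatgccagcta
Each held the hexamer in both orientations, at 176 and 155 bases before the start in Cyp3a25 and at 177 and 156 bases in Cyp3a59. A match of letters is a description and does not show binding.

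Cyp4f17, of a family that hydroxylates the far end of fatty acids, had 360 reads in control and 245 reads in Alb-D2KO, a ratio of 0.681 (interval 0.630 to 0.737). It completes the 10 lower P450 genes.

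The 3 higher enzymes were also P450 genes. Cyp2d40, a member of the drug-oxidizing Cyp2d family, had a mean of 1306 reads in control and 1854 reads in Alb-D2KO, a ratio of 1.42 (interval 1.37 to 1.47). Its neighbour Cyp2d34 was near the detection limit, with 3.01 and 6.50 reads and a ratio of 2.16 (1.11 to 4.40). Cyp21a1, the steroid 21-hydroxylase known from the adrenal cortex, had 46.8 and 118 reads, a ratio of 2.53 (2.16 to 2.97). The reads of these genes are less sure than the intervals say. Cyp2d40 shares 27.6% of its transcript words with other genes, most with the pseudogene Cyp2d41-ps, which lies outside the 45 genes and was also higher (31.4 and 58.8 reads, ratio 1.87). Cyp21a1 shares 36.9%, most with Cyp21a2-ps, and overlaps the pseudogene Tnxa on the opposite strand. Whether reads of these copies entered the values was not tested. The promoter of Cyp2d40, shown as that of the most abundant higher enzyme (chr15:82764123-82764372, minus strand), has the reverse complement of TATAAA in capitals, 91 bases before the start. This RefSeq start also lies further into the gene than the GENCODE one (chr15:82764183), so the last bases shown lie inside the GENCODE gene.
Cyp2d40 promoter: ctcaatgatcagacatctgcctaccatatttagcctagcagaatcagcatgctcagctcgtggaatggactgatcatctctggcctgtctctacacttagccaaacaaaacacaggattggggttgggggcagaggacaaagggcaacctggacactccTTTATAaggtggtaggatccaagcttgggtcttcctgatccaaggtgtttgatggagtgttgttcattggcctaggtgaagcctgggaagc

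Fmo1, the flavin monooxygenase that oxidizes nitrogen and sulfur atoms of drugs, was the 1 listed gene of 7 annotated in its family. It had 4206 reads in control and 3142 reads in Alb-D2KO, a ratio of 0.747 (interval 0.731 to 0.764).

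The carboxylesterases hydrolyse ester drugs and some lipids, and 6 of 19 annotated genes were listed, each of them lower, with a median ratio of 0.749. Ces1c, whose protein is secreted into plasma in mice, had the largest mean, 41800 reads in control and 31788 reads in Alb-D2KO, a ratio of 0.760 (interval 0.755 to 0.766). Ces1e (3615 and 2386 reads, ratio 0.660) and Ces1g (4140 and 2754 reads, ratio 0.665) had the lowest ratios of the family. Ces1f had 8678 and 6836 reads (ratio 0.788). In the Ces2 group, Ces2a had 7882 and 5818 reads (ratio 0.738) and Ces2e 4172 and 3231 reads (ratio 0.775). The ratios of summed means were 0.752 for the 4 Ces1 genes, a sum that Ces1c decides, and 0.751 for the 2 Ces2 genes. The median ratios were 0.713 for Ces1 and 0.756 for Ces2.

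The retinoid and steroid dehydrogenases held the lowest ratio of the 45 enzymes. Rdh16, a retinol and hydroxysteroid dehydrogenase, had a mean of 1952 reads in control and 928 reads in Alb-D2KO, a ratio of 0.476 (interval 0.458 to 0.494). Hsd17b6, which oxidizes androstanediol and retinol, had 2847 and 1539 reads, a ratio of 0.541 (0.525 to 0.557). Rdh9, a cis-retinol and androgen dehydrogenase, had 1723 and 1161 reads, a ratio of 0.674 (0.650 to 0.698). These 3 genes lie within 231226 bp of one another on chromosome 10 (chr10:127776386-128007611), with Rdh19, Rdh16f2 and Rdh7 between them, which were not listed. Rdh16 shares 23.2% of its transcript words with other genes, 9.85% with Rdh9, and overlaps the pseudogene Rdh18-ps on the same strand. Rdh9 shares 72.0% of its transcript words with other genes, most with Rdh16f1, so its value may hold reads of that gene. Rdh11, a retinal reductase on chromosome 12 with almost no shared words (0.406%), had 1069 and 739 reads, a ratio of 0.691 (0.661 to 0.723). Hsdl2, a short-chain dehydrogenase of peroxisomes and mitochondria, had 1513 and 1224 reads and a ratio of 0.809 (0.780 to 0.838). The ratio of summed means was 0.596 for the 3 Rdh genes, the lowest of the families with more than 1 gene. The Rdh16 promoter is printed as that of the enzyme with the lowest ratio (chr10:127800903-127801152, plus strand). It holds the reverse complement of the hexamer AGGTCA at 238 bases and TATAAA at 82 bases before the start, both in capitals.
Rdh16 promoter: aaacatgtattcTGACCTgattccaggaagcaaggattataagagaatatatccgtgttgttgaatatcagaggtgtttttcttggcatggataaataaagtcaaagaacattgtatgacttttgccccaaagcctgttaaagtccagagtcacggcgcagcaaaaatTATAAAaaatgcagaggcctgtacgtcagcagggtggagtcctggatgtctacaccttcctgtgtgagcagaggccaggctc

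Adh7, a retinol-oxidizing alcohol dehydrogenase best known from the stomach, had 773 reads in control and 542 reads in Alb-D2KO, a ratio of 0.701 (interval 0.664 to 0.739), and was the 1 listed gene of 6 annotated Adh genes. Among the aldehyde dehydrogenases 3 of 21 genes were listed. Aldh3a2, which oxidizes fatty aldehydes, had 8999 and 6334 reads (ratio 0.704, interval 0.693 to 0.715). Aldh6a1, of valine and thymine breakdown, had 10034 and 8064 reads (ratio 0.804), and Aldh5a1, which oxidizes succinic semialdehyde, had 2279 and 1844 reads (ratio 0.809). Aldh6a1 overlaps Bbof1 on the opposite strand, and whether counting used strand is not given in the sources used here. The last 2 genes act on products of amino acid and GABA breakdown rather than on foreign compounds, and their ratios were among those closest to 1.

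Of 17 annotated aldo-keto reductase genes 3 were listed. Akr1d1, the reductase that sets the ring shape of bile acids and inactivates steroid hormones, had 3036 reads in control and 2378 reads in Alb-D2KO, a ratio of 0.783 (interval 0.764 to 0.804). Akr1c19, a dehydrogenase of hydroxysteroids, had 2662 and 1988 reads (ratio 0.747). Akr1b10, which reduces aldehydes and retinal, was scarce, with 32.4 and 20.5 reads (ratio 0.633, interval 0.479 to 0.830).

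The conjugating enzymes, 13 listed genes of 64 annotated, were lower without exception, with a median ratio of 0.697. Ugt1a1, the glucuronosyltransferase that clears bilirubin, had 14556 reads in control and 9690 reads in Alb-D2KO, a ratio of 0.666 (interval 0.657 to 0.674). Ugt1a5 had 1964 and 1155 reads (ratio 0.588). Genes of the Ugt1a locus differ in their first exon and share the others, and 81.3% of the words of Ugt1a1 and 65.3% of those of Ugt1a5 occur in other genes, so the division of reads between them rests on the counter. The sum of both gave a ratio of 0.656. Ugt2a3 had 5776 and 4414 reads (ratio 0.764) and Ugt2b36 had 9253 and 7482 reads (ratio 0.809).

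Glutathione transferases join glutathione to reactive compounds. With Gstm6 left out of both counts, they were the family with the largest listed share, 8 of 21 annotated genes (38.1%). The 8 were lower, with a median ratio of 0.696. Gstm1 was the most abundant, with 36928 reads in control and 25749 reads in Alb-D2KO, a ratio of 0.697 (interval 0.692 to 0.703). Gstt2 had the lowest ratio, 0.561 (1177 and 660 reads, interval 0.535 to 0.587). Gsta2 had 295 and 180 reads (ratio 0.611, interval 0.558 to 0.668), and shares 60.7% of its words with other genes, most with Gsta1. Gstm2 had 944 and 623 reads (ratio 0.660) and Gstt3 1241 and 863 reads (ratio 0.696). Gstt1 (ratio 0.774), Gstm7 (0.782) and Gstm4 (0.787) were closest to 1. Sult2a8, a bile acid sulfotransferase of mouse liver, was the 1 listed gene of 21 annotated sulfotransferases, with 11816 and 9466 reads and a ratio of 0.801 (0.791 to 0.812).

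In the annotation, without the genes left out by name, the 11 families have 273 protein-coding genes. Of these 45 (16.5%) were listed, beside 4.78% of all 21923 protein-coding genes. Listing needs enough reads to pass the authors' threshold, and the enzymes are abundant in liver, so the shares are not adjusted for level. Genes outside the table have no value here and may be unchanged, too variable or not expressed.

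**Figure D3:**
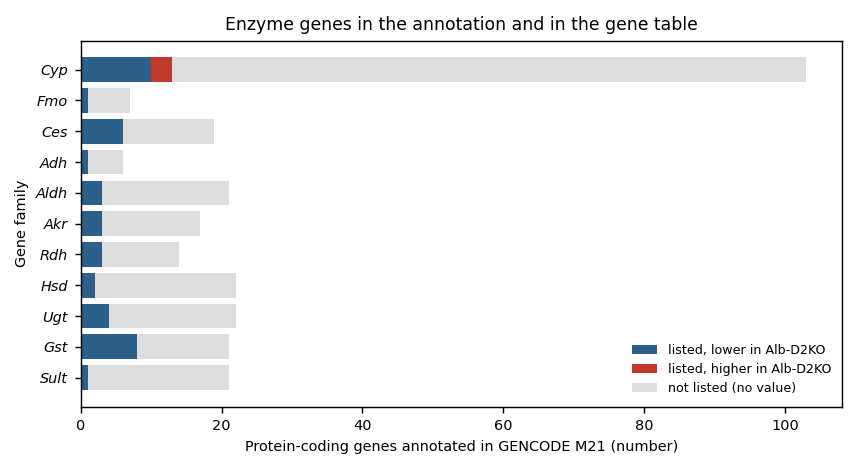
Number of annotated protein-coding genes in each enzyme family, split into genes listed as lower in Alb-D2KO liver (blue), listed as higher (red) and not listed (grey). Genes left out by name are not counted. The Gst family has the largest listed share, 8 of 21, the Sult family the smallest, 1 of 21, and the 3 higher genes are in the Cyp family.

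The ratio varied with level. Among the 8 enzymes with a control mean under 500 reads the median ratio was 0.622, with 6 lower. It was 0.696 for the 13 genes of 500 to 2000 reads, 0.747 for the 17 genes of 2000 to 10000 reads and 0.741 for the 7 genes over 10000 reads. The 7 most abundant enzymes, Cyp2e1, Ces1c, Gstm1, Cyp2c50, Ugt1a1, Sult2a8 and Aldh6a1, lay between 0.666 and 0.804. Scarce genes need a larger change to reach the authors' threshold, so the wider range at low counts cannot be told apart from the selection.

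Neighbouring enzymes differed in the same direction. Members within 200 kb of one another formed 10 clusters that held 26 of the 45 genes, and each cluster had 1 direction, which is a description since 42 of 45 genes share it. The 9 lower clusters were Ugt1a on chromosome 1, Gstm on chromosome 3, Cyp3a on chromosome 5, Ces1 and Ces2 on chromosome 8, Gstt and Rdh with Hsd17b6 on chromosome 10, and 2 Cyp2c clusters on chromosome 19. The Cyp2d pair on chromosome 15 was the higher one. Size differed within and between clusters. On chromosome 19, Cyp2c38 and Cyp2c39 together gave a ratio of summed means of 0.482 and Cyp2c50 and Cyp2c54 one of 0.715. Inside the spans of the 10 clusters lay 35 genes of the families, those left out by name not counted. Of these 9 were not listed, namely Gstm3, Gstt4, Ces1d, Ces2b, Ces2c, Ugt1a2 and the 3 Rdh genes named above.

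**Figure D4:**
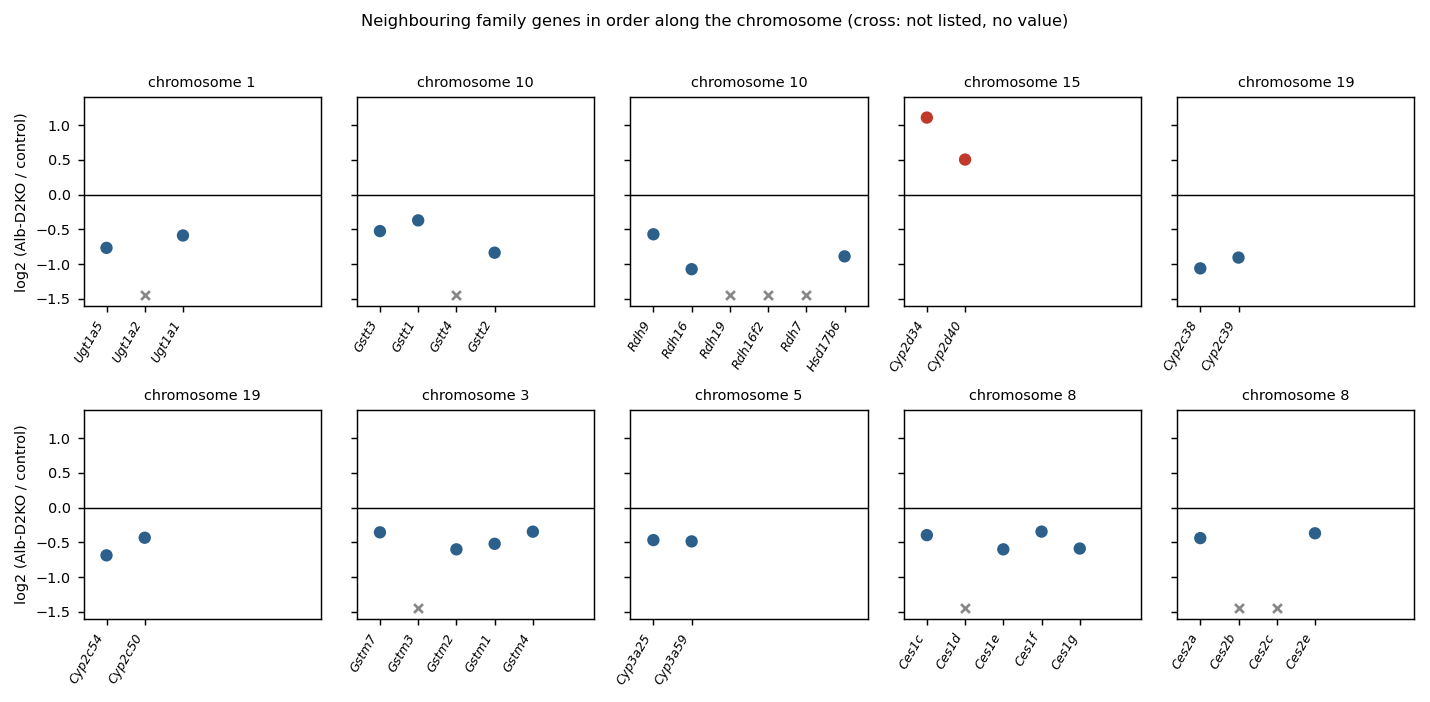
Log2 ratio of the Alb-D2KO mean over the control mean for the enzyme genes of the 10 clusters, in order along each chromosome but not to scale. Points are blue for lower and red for higher genes, and a grey cross at the foot marks a family gene inside the span that was not listed and has no value. The Cyp2d pair on chromosome 15 is above 0 and the genes with a value in the other 9 panels are below it.

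Shared sequence limits how well single genes can be told apart. At least 20% of the transcript words occurred in other genes for 15 of 45 enzymes and at least 50% for Ugt1a1, Rdh9, Ugt1a5 and Gsta2, with a median of 12.1%. Without the 15 genes the median ratio was 0.739, with 29 genes lower and Cyp2d34 higher.

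Promoters of 300 bases, from 250 before to 50 after the RefSeq start (GRCm38.p6), were available for 37 of the 45 enzymes, and Ces1f, Cyp21a1, Cyp2c23, Cyp2c54, Cyp2d34, Cyp4f17, Fmo1 and Gstt2 had no entry. The enzymes had few CpG sites. The median ratio of observed to expected CpG was 0.161 for the enzymes, 0.681 for the 884 listed genes with a promoter and 0.389 for all 27025 genes with one. A ratio over 0.6 was found in 3 of 37 enzymes (8.11%), in 56.2% of listed genes and in 36.4% of all genes. Median GC content was 45.7% in the enzymes, 58.7% in the listed genes and 52.7% in all.

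**Figure D5:**
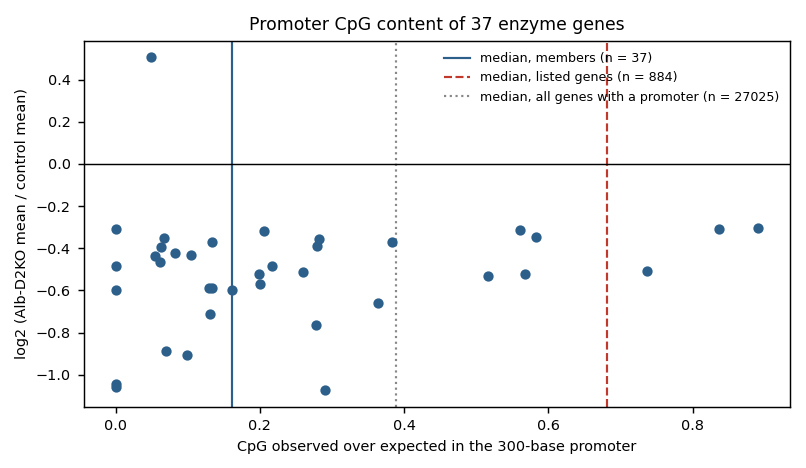
CpG content of the 300-base promoter, as observed over expected CpG, against the log2 ratio of the Alb-D2KO mean over the control mean for 37 enzyme genes (points). Vertical lines mark the median CpG value of the enzymes (0.161, solid), of the 884 listed genes (0.681, dashed) and of all 27025 genes (0.389, dotted), and 3 enzymes lie to the right of the listed genes' median.

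The letters of 13 motifs were searched on both strands of these promoters, a set chosen after the ratios had been seen. AGGTCA was found in 14 of 37 enzymes (37.8%), in 16.7% of listed genes and in 18.1% of all genes. The 14 were Akr1b10, Akr1d1, Aldh6a1, Ces2a, Cyp2c39, Cyp2d40, Cyp3a25, Cyp3a59, Gstm1, Rdh11, Rdh16, Rdh9, Sult2a8 and Ugt2b36. Direct repeats of it with a gap of 4 bases, the classical thyroid hormone receptor arrangement, or of 1 base were found in 0 of 37 enzymes, and in 0.0148% and 0.0481% of all genes. TATAAA was found in 12 enzymes (32.4%, beside 15.7% of all genes), the C/EBP letters TTGCNNAA in 11 (29.7%, beside 12.2%) and CCAAT in 26 (70.3%, beside 41.1%). CG-containing motifs were rarer than in the list, GGGCGG in 6 enzymes (16.2%, beside 60.6% of listed and 38.2% of all genes) and the AhR core GCGTG in 8 (21.6%, beside 50.2% and 35.2%). The antioxidant response core TGACNNNGC was found in 2 enzymes (5.41%, beside 14% of all genes). The FOXA letters TGTTTAC and the HNF6 letters ATTGATT were each found in 3 enzymes (8.11%, beside 4.05% and 3.27% of all genes), the HNF1 letters GTTAATNA in 1 (2.70%, beside 2.98%) and the HNF4 letters CAAAGTCCA in 0 (beside 0.555%). Absence from this window says nothing about sites elsewhere.

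Genes that act with or on these enzymes were read from lists. For these lists and those below, the background is that 4.78% of all protein-coding genes were listed, and 16.5% of the enzyme families. Of 28 nuclear receptors, their partners and liver transcription factors, 3 were listed, and the 3 were lower. Onecut1, which encodes the liver factor HNF6, had a mean of 7021 reads in control and 2584 reads in Alb-D2KO, a ratio of 0.368 (interval 0.360 to 0.376). The forkhead factors Foxa1 (1289 and 873 reads) and Foxa2 (1197 and 761 reads) had ratios of 0.677 and 0.635. The receptors of foreign compounds on the list, CAR, PXR and AhR, were not listed in the gene table. Of 9 electron donors and heme synthesis genes 0 were listed. Of 30 other conjugation and redox genes 6 were listed, each lower, namely Papss2, which makes the sulfate donor (ratio 0.776), Gclc, which limits glutathione synthesis (0.719), Mgst3 (0.636), the monoamine oxidases Maoa (0.692) and Maob (0.748), and the lactonase Pon1 (0.726).

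Targets of known regulators of such enzymes were also read, beside a background of 89.4% lower genes in the whole list. Enzyme-family genes, listed at 16.5%, make up 28 of the 35 CAR and PXR targets and 10 of the 22 NRF2 targets. The counts of listed targets were not tested. Of 35 CAR and PXR targets 11 were listed and lower, 10 of them among the 45 enzymes and the other being the transporter Abcc3 (8805 and 5323 reads, ratio 0.605). Of 10 AhR targets Tiparp was listed (ratio 0.744). Of 22 NRF2 targets 5 were listed and lower, Gclc, Gsta2, Gstm1, Gstm2 and Gstm4. Of 17 bile acid synthesis genes Akr1d1 alone was listed. Among other retinoid handling genes, Retsat, the retinol saturase, had 7232 reads in control and 4421 reads in Alb-D2KO (ratio 0.611).

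Sex and zone of the lobule both set the level of such enzymes in mouse liver. Of 18 male-biased genes, 10 of them from the enzyme families, 0 were listed. Of 28 female-biased genes, 24 of them from these families, Cyp2c38 and Cyp2c39 were listed, both lower and with shared transcript words. Beside them stands Xist, the 1 listed gene of 5 sex-linked genes examined, with 32.6 reads in control and 63.2 reads in Alb-D2KO (ratio 1.94, interval 1.59 to 2.38). The labels give no sex, and the part of sex in the enzyme values was not tested. Of 25 pericentral genes 5 were listed, Cyp2e1, Cyp2c50, Cyp2c54, Gstm1 and Gstm2, with ratios of 0.621 to 0.741. Of 21 periportal genes Hsd17b6 (0.541) and Ctsc (0.690) were listed. The enzyme families make up 14 of the 25 pericentral and 5 of the 21 periportal genes. Since these families were listed more often than other genes, the counts of the 2 zones are not like for like and were not tested.

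Among markers of other liver cells, 0 of 6 Kupffer cell, 0 of 3 neutrophil and 0 of 3 erythroid genes were listed. Of 6 stellate cell markers Pdgfrb was listed (ratio 0.767), and of 5 endothelial markers Stab2, Kdr and Oit3 (0.778 to 0.805), all lower. Of 4 cholangiocyte markers Sox9 was listed and higher (181 and 273 reads, ratio 1.51), and of 4 B and T cell markers Cd3e (0.520) and Ighm (0.575) were lower. Their part in the enzyme values was not tested.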

How the data were processed

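Adult mouse livers, 5 control and 4 Alb-D2KO, were profiled by RNA-seq, and genotype was taken from the labels. The authors aligned paired-end reads with STAR to mm10 and quantified them to GENCODE release M24 with the expectation-maximization counter of Partek Flow. The deposited gene table holds estimated counts as a mean per genotype, normalized by "absolute value", and their sum over the 9 libraries, which equalled the libraries times the means for each of the 1525 genes. Whether strand was used is not given in the sources used here. The authors selected the genes at a p-value under 0.05 and a fold over 1.2. Their p-value, FDR, ratio and fold change columns and enrichment tables hold their own comparison and were not used, other than to check the p limit (0 genes at or over it). Per the file headers, the library summary gives the count of total reads and the percent of reads by position, and a further deposited table gives quantiles of the estimated counts per library. Total reads ranged from 40234632 to 54504351. Precision of the gene values is therefore known for counting error alone.

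Ratios were recomputed from the authors' means, with Clopper-Pearson intervals (scipy 1.17.1, numpy 2.4.6, pandas 2.3.3, Python 3.11.15), tested on simulated data. The simulated counts were Poisson draws at equal depth without variation between mice, as the intervals assume, so they check the computation alone. The 45 symbols were matched to GENCODE M21 of the mm10 build, which supplied coordinates, lengths and 31-base transcript words. Library measures were compared by exact permutation over samples, so their p-values measure the spread between these 9 samples. Each enzyme could be named, and other genes came from the lists or, like the pseudogene Cyp2d41-ps, were chosen after their values were seen. The enzymes and lists were chosen with earlier results of these data known. Scaling by 4 depth measures, count minimums of 100 and 1000, pseudocounts of 1 and 10 and removal of genes with shared words were tried. Some per-library columns, such as those of junctions, were not used. An item of the lists is not reported here.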

Additional observations from a re-analysis of the deposited data

Results flagged for a closer look

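Total reads of the library labelled Alb-D2KO replicate 1 were 50322325, while the next deepest Alb-D2KO library had 41723927. This library stood apart from the other 3 by more than Dixon's 95% limit for a group of 4. Of 14 groups of library values examined it was the 1 case found, and chance would give 0.7. Without it, the log2 difference in assigned reads went from -0.10 to -0.18, and its part in the deposited Alb-D2KO means could not be removed.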

How the results depend on the processing

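The direction of the 45 enzymes and of the 11 family medians could not change under the 4 depth scalings. The smallest listed fold change was 1.21 and the largest scaling divided by 0.890. Differences of the lower enzymes shrank, and those of the 3 higher ones grew. The median ratio, 0.715 as deposited, was 0.767 scaled by assigned reads, 0.795 by total reads, 0.776 by the upper quartile and 0.804 by the median gene. Enzymes at least 1.5-fold lower numbered 9, 7, 8 and 7 in the same order instead of 14, and those at least 2-fold lower 0 in each instead of 3. Over 1.2-fold lower were 27 after scaling by the median gene, and 33, 29 and 31 by assigned reads, total reads and the upper quartile. The ratio of assigned reads was also recomputed without each replicate in turn, while the enzyme means still held all 9 libraries. So scaled, the median ratio ran from 0.747 to 0.811, the 1.5-fold count from 6 to 10 and the 2-fold count from 0 to 1. The lowest 1.5-fold count, 6, came with Alb-D2KO replicate 1 left out of the scaling ratio. These ranges show how the scaling ratio depends on single libraries, and not how the enzyme means do. The assigned reads difference itself ran from -0.18 to -0.06 (exact permutation p from 0.0714 to 0.543). A minimum of 1000 summed reads left 1 higher enzyme and a median ratio of 0.719. Without genes sharing at least 20% of their words the median ratio was 0.739, with 8 enzymes at least 1.5-fold lower and 1 higher. A pseudocount of 10 gave a median ratio of 0.720. The ratio of summed means, an addition chosen after seeing the data, was 0.728, and 0.734 without Cyp2e1. Gene values could not be refitted without a library, because 1 mean per genotype was used. No paired analysis was possible because the replicate numbers follow the accessions, the table columns carry none, and the gene values come from no test.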
